A study of Mus musculus with 6 samples.

Results

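The 10 genes described here encode the machinery that controls the entry of cells into the division cycle in G1, and they were taken by symbol from the 35027 genes of the deposited expression table: the D-type cyclins (Ccnd1, Ccnd2, Ccnd3), their kinase partners (Cdk4, Cdk6), and the CDK inhibitors of the INK4 family (Cdkn2a, Cdkn2b, Cdkn2c) and the CIP/KIP family (Cdkn1a, Cdkn1b). D-type cyclins are made in response to mitogenic signals such as MAPK signaling, and they activate CDK4 and CDK6, which phosphorylate the retinoblastoma protein (RB) and release E2F transcription factors. INK4 proteins bind CDK4 and CDK6 and keep cyclin D off, whereas CIP/KIP proteins bind whole cyclin-CDK complexes and inhibit CDK2 most strongly. In thyroid cancer, the MAPK pathway is commonly activated by mutant BRAF, and cyclin D1 is among the genes that this pathway induces.

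To ask what mutant Braf adds in thyroid tumors driven by nuclear YAP, each gene was compared between sorted tumor cells of 2 genotypes. YAP mice (RIK/tetO-YAP1 S127A, with a thyroid-specific Cre) express a constitutively nuclear YAP S127A in thyroid follicular cells when given doxycycline (dox), and BrafYAP mice carry in addition an LSL-Braf allele that gives Braf V600E from the endogenous locus. Both groups therefore carry the Cre, the RIK allele (a reverse tetracycline transactivator with the red reporter Kate) and the YAP transgene, and neither is a normal thyroid control. By the labels, dox was started at 4 weeks of age, about 20000 Kate-positive cells were collected for each library, and the RNA was amplified by 12 cycles of SMART-Seq and 8 cycles of library PCR. There were 3 libraries for YAP (replicates 1, 2 and 3) and 3 for BrafYAP (replicates 1, 2 and 6). The labels describe a pool of 3 tumors for every YAP library but 1 tumor for every BrafYAP library, so pooling and genotype cannot be told apart. The methods of the study instead give a single tumor from a single mouse as each biological replicate and name no pooling in either group. The labels were used here. For dox, the methods give the same age as the labels, while the results text of the study gives a later one. The labels named no batch and no shared litter, so the p-values measure only the spread between these libraries.

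Values are given as scaled reads, which are the reads behind the deposited TPM with the division by gene length undone and the scaling between libraries kept. Each library held 26.2 to 36.9 M estimated reads. At these depths the members ranged from 10.0 estimated reads (Cdkn2a in BrafYAP replicate 6) to 34762 (Cdkn1a in BrafYAP replicate 2). Reads from amplified cDNA without molecular identifiers are not independent molecules, so read numbers speak only of counting error. In bulk RNA, fewer cells that make a transcript and less transcript per cell cannot be told apart.

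A pair of libraries stood apart. Across all genes tested, BrafYAP replicate 6 correlated with the others at r = 0.732 to 0.837, whereas the other pairs lay between 0.833 and 0.968 (Pearson's r over genes, which are not independent). It also differed from the other BrafYAP libraries in cell type markers. Its thyroglobulin (Tg) value was 19639 scaled reads, against 129 and 51.8 in BrafYAP replicates 1 and 2 and 1279 to 16675 in YAP. Summed levels (TPM recomputed on exonic length) follow for BrafYAP replicates 1, 2 and 6. For 8 thyroid markers they were 193, 117 and 365, with 190 to 408 in YAP. For 2 C-cell markers they were 1.48, 3.16 and 59.6, with 1.96 to 58.6 in YAP. For 3 endothelial markers they were 2.11, 1.13 and 15.7, with 2.55 to 30.6 in YAP. Pax8, a thyroid transcription factor, was present in all 6 libraries at 5188 to 14662 scaled reads. YAP replicate 1 had low values for GC-rich genes. In the decile of genes with the highest GC content its median deviation from the gene means was -0.98 on the log2 scale, against 0.00 to 0.43 in the other libraries, and the median change of those genes from YAP to BrafYAP was 0.56. Of the members, Cdkn2a and Cdkn2c lie in that decile, and Ccnd3 and Cdkn2b in the next one down. Results that rest on either library are given with and without it, and for GC-rich members also after a GC adjustment. Both this adjustment and its use were chosen after the data were seen.

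**Figure D1:**
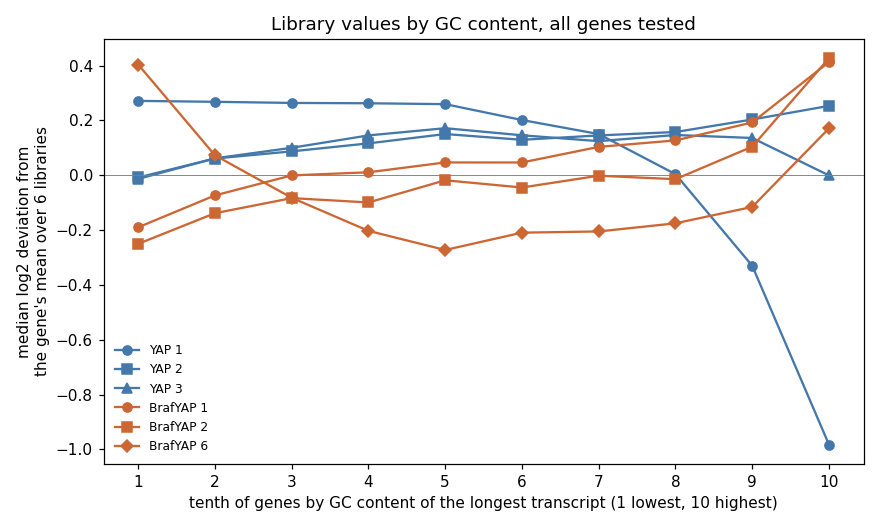
Median deviation of each library from the gene means (vertical axis, log2 scale) in deciles of the 16832 genes tested by GC content of the longest transcript (horizontal axis). Lines are libraries, blue for YAP and orange for BrafYAP. YAP replicate 1 falls to -0.98 in the decile with the highest GC content.

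All 10 genes passed the minimum mean of 10 scaled reads, and 0 of them differed between the genotypes at a limma adjusted p-value under 0.05. Over all 16832 genes tested 0 passed this threshold either (percent called 0.0), while 3404 had an unadjusted p-value under 0.05. By voom on the estimated reads 0 genes passed and 3416 had an unadjusted p-value under 0.05. With array weights, which give libraries that stand apart less influence, Ccnd1, Ccnd3 and Cdkn2b passed the limma adjusted threshold, as did 4653 of all genes. Among the members, 4 of 10 had an unadjusted p-value under 0.05, namely Ccnd1, Ccnd3 and Cdkn2b, which were higher in BrafYAP, and Cdk6, which was lower. The background was 20.2% of all genes, with 9.68% higher and 10.5% lower. The count of 4 was 2 without YAP replicate 1, and it was 1 without YAP replicate 3 and 1 without BrafYAP replicate 1. The groups did not overlap for 3 members (Ccnd1 and Ccnd3 higher, Cdk6 lower), beside 28.7% of all genes (11.7% higher and 17.1% lower). The median log2 fold change of the members was 0.34, beside -0.12 for all genes. Median-ratio scaling moved the median of all genes to 0.01, and the members' changes moved up with it without a change of sign.

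**Figure D2:**
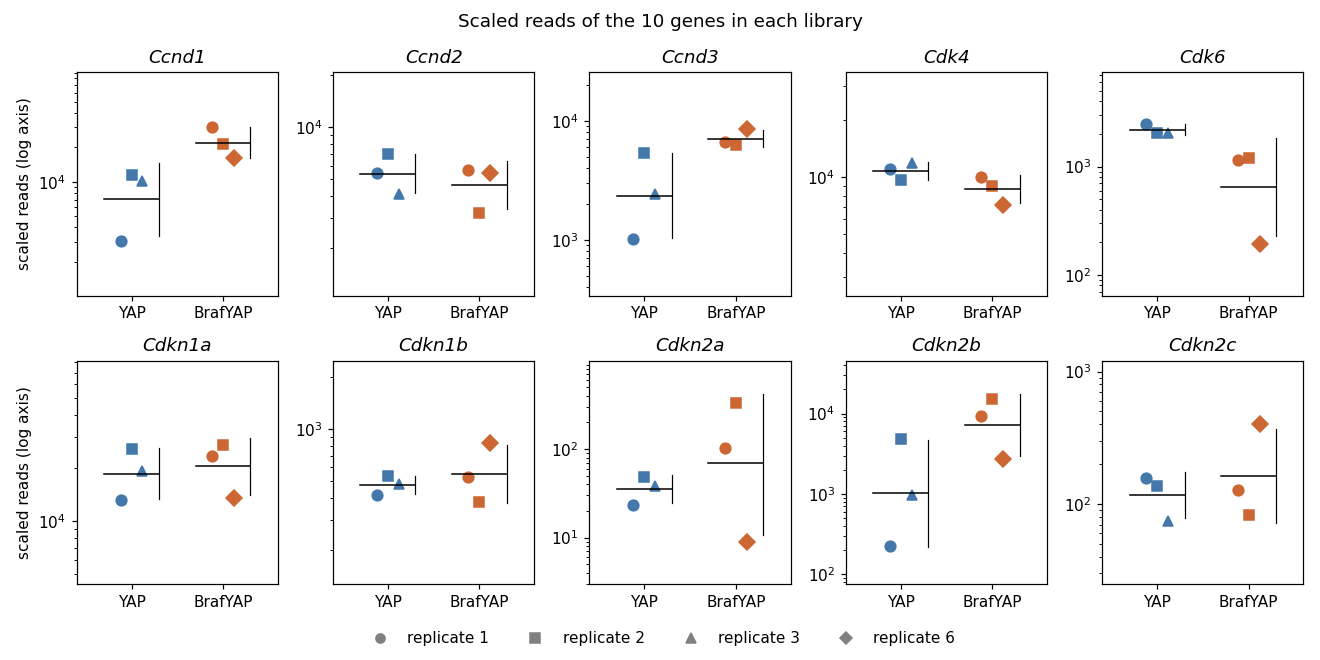
Scaled reads (log axis) of each gene in the 3 YAP (blue) and 3 BrafYAP (orange) libraries, with the replicate number shown by the symbol. Horizontal lines are means and vertical bars 1 SD of log2(scaled reads + 1). BrafYAP lies wholly above YAP for Ccnd1 and Ccnd3 and wholly below it for Cdk6.

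Among the D-type cyclins, Ccnd1 and Ccnd3 were higher in every BrafYAP library than in any YAP library, while Ccnd2 overlapped between the genotypes. The proteins are alike in role, and each carries near its start the motif LxCxE, by which D-type cyclins contact RB. The first 60 coding bases of each are printed here, from GENCODE M21 transcripts on GRCm38, to show this stretch. Capitals mark the codons of the motif, which are residues 5 to 9 of cyclin D1 and 3 to 7 of cyclins D2 and D3. The stretches lie in exon 1 of Ccnd1 (chr7:144939634-144939693, minus strand), exon 1 of Ccnd2 (chr6:127150714-127150773, minus strand) and exon 3 of the Ccnd3 transcript shown (chr17:47593655-47593714, plus strand).
Ccnd1: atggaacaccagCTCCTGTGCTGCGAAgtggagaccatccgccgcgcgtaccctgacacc
Ccnd2: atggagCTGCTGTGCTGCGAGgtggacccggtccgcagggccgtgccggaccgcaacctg
Ccnd3: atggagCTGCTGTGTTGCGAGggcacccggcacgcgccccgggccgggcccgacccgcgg

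Ccnd1 (chr7:144929931-144939925, minus strand), which encodes cyclin D1, had 3041, 11423 and 10162 scaled reads in YAP replicates 1, 2 and 3 and 30407, 21419 and 16231 in BrafYAP replicates 1, 2 and 6. The groups did not overlap, with YAP replicate 1 far below the other YAP libraries and BrafYAP replicate 6 the lowest of its group. The means were 8209 ± 4519.6 and 22686 ± 7172 (SD, n = 3 each), a ratio of 2.76. On the log2 scale the change was 1.63 (SE 0.55, limma adjusted p = 0.170, unadjusted p = 0.0195), with a 95% interval of 0.35 to 2.92. Without YAP replicate 1 it was 1.03, and after the GC adjustment 1.80. LTO1, a gene on the opposite strand, shares 1100 exonic bases with Ccnd1 (23.4% of its exonic length). The sources used here do not say that counting used strand, so reads of this stretch cannot be assigned. LTO1 itself had 778 to 1585 scaled reads, with a log2 change of -0.61 (limma adjusted p = 0.315), opposite in sign to that of Ccnd1.

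Ccnd3 (chr17:47505051-47599691, plus strand) encodes cyclin D3, the D-type cyclin best known from lymphocytes. Its scaled reads were 1019.7, 5311 and 2410.5 in YAP replicates 1, 2 and 3 and 6571, 6309 and 8573 in BrafYAP replicates 1, 2 and 6. The BrafYAP values lay within 1.36-fold of each other and above all YAP values, which spread over 5.21-fold with replicate 1 again the lowest. On the log2 scale the change was 1.59 (SE 0.57, limma adjusted p = 0.190, unadjusted p = 0.0262). It was 0.99 without YAP replicate 1 and 1.41 after the GC adjustment. Bysl, on the other strand, shares 361 exonic bases with Ccnd3 (4.11%) and showed a log2 change of -0.42 (limma adjusted p = 0.593).

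Ccnd2 (chr6:127125162-127152193, minus strand), the gene of cyclin D2, had 5469.5, 6974 and 4135 scaled reads in YAP replicates 1, 2 and 3 and 5638, 3189 and 5447 in BrafYAP replicates 1, 2 and 6. The groups overlapped, and the lowest library was BrafYAP replicate 2. Its log2 change was -0.23 (SE 0.35, limma adjusted p = 0.733) and its 95% interval ran from -1.04 to 0.58. Of 2 antisense transcripts that overlap it, 9330179D12Rik had 22.7 to 39.1 scaled reads and Gm43126 had no value here.

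Levels of different genes were compared as TPM recomputed on exonic length. On this scale Ccnd1 was the leading D-type cyclin transcript in all 6 libraries, but in YAP replicate 1 Ccnd2 led instead with the longest transcript as the length or with no length division. It made up 48.1, 64.3 and 75.1% of the summed D-type cyclin level in YAP replicates 1, 2 and 3 and 82.7, 81.1 and 68.9% in BrafYAP replicates 1, 2 and 6. BrafYAP replicate 6 lay below YAP replicate 3, so the shares overlapped. The share of Ccnd2 did not overlap, at 43.3, 19.6 and 15.3% in YAP and 7.68, 6.04 and 11.6% in BrafYAP. Since the shares of a library add up to the whole, the Ccnd2 share can be lower without a lower Ccnd2 level. The levels of Ccnd2 were 39.9 to 61.7 TPM in YAP and 30.9 to 53.4 in BrafYAP. The summed level of the D-type cyclins was 115 to 314 TPM in YAP and 443 to 696 in BrafYAP. Ccnd1 supplied 48.1 to 82.7% of these sums, and no test was made on them.

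**Figure D3:**
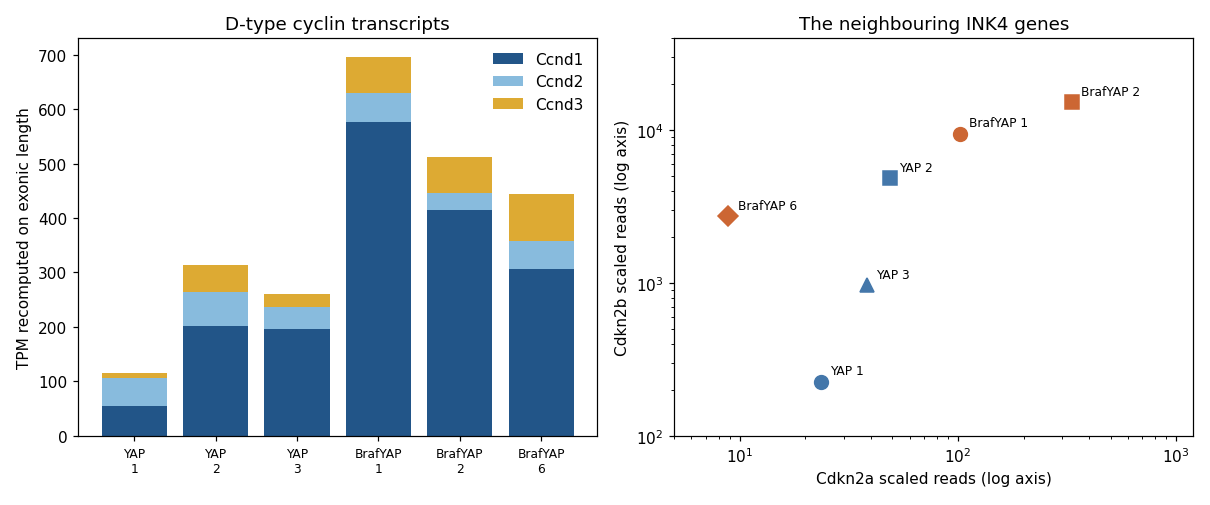
Left, level (TPM recomputed on exonic length) of the D-type cyclins, stacked for each library, with Ccnd1 the tallest segment in all 6 libraries. Right, scaled reads of Cdkn2b against Cdkn2a (log axes), each point a library, in which BrafYAP replicate 6 has the lowest Cdkn2a value and an intermediate Cdkn2b value.

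Of the kinases, Cdk4 was abundant and overlapped between the genotypes, and Cdk6 was scarcer and lower in every BrafYAP library. Cdk4 (chr10:127063534-127067920, plus strand) had 10994, 9609 and 11892 scaled reads in YAP replicates 1, 2 and 3 and 9998, 8969 and 7151 in BrafYAP replicates 1, 2 and 6. The groups overlapped, since BrafYAP replicate 1 lay above YAP replicate 2. This gave a log2 change of -0.32 (SE 0.27, limma adjusted p = 0.515), with a 95% interval of -0.95 to 0.30, the narrowest among the members. Tspan31, which encodes a tetraspanin and lies tail to tail with Cdk4 on the other strand, shares 641 exonic bases with it (19.7% of the exonic length of Cdk4) and had 5783 to 11398 scaled reads. Its log2 change was -0.51 (limma adjusted p = 0.329), so the reads that Cdk4 may share with it come from a gene of similar abundance and sign.

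Cdk6 (chr5:3341485-3531008, plus strand) had 2497, 2020.0 and 2059 scaled reads in YAP replicates 1, 2 and 3 and 1159, 1207 and 193 in BrafYAP replicates 1, 2 and 6. All BrafYAP libraries lay below all YAP libraries, and BrafYAP replicate 6 was 6.26-fold below the highest of its own group. The log2 change was -1.75 (SE 0.69, limma adjusted p = 0.222, unadjusted p = 0.0383), and it was -0.88 without BrafYAP replicate 6 (limma adjusted p = 0.149, unadjusted p = 0.0148). Without YAP replicate 1 it was -1.66 (limma adjusted p = 0.444, unadjusted p = 0.0918). Without YAP replicate 2 or 3 the unadjusted limma p-value was 0.0717 or 0.0782. The sign was thus shared by all 3 BrafYAP libraries, while the size depended on 1 of them. The antisense transcripts Gm17590 and Gm42435 that overlap Cdk6 had 14.9 scaled reads or fewer.

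Cdk6 is prominent in blood cells, and immune markers were lower in BrafYAP as well. Of 6 immune markers, 5 were tested and all 5 had lower means in BrafYAP, with Ptprc, Cd68 and Csf1r not overlapping. Over all genes 17.1% were lower without overlap. Csf1r, the receptor for macrophage colony-stimulating factor, had 24502, 44698 and 11521 scaled reads in YAP replicates 1, 2 and 3 and 10144, 6481 and 2766 in BrafYAP replicates 1, 2 and 6. The summed level of the 6 markers was 11713 to 40269 TPM in YAP and 3247 to 12584 in BrafYAP, mostly from Lyz2. BrafYAP replicate 6 was lowest for Cdk6, Cd68, Csf1r and Lyz2. Within YAP the orders differed, since replicate 2 had the most Csf1r and the least Cdk6. Cdk6 had 2497, 2020.0 and 2059 scaled reads in YAP replicates 1, 2 and 3, where the summed immune level was 40269, 28722 and 11713 TPM. The libraries came from cells sorted for the Kate reporter, which is meant for thyroid cells, yet immune transcripts were present in every library. The part of immune cells in the Cdk6 difference was not tested.

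The ratio of Cdk4 to Cdk6 levels per exonic length was 19.0, 20.5 and 24.9 in YAP replicates 1, 2 and 3 and 37.2, 32 and 159.8 in BrafYAP replicates 1, 2 and 6. Cdk4 was the predominant transcript of the pair in every library, and every BrafYAP ratio exceeded every YAP ratio. The summed level of both kinases was 258 to 345 TPM in YAP and 196 to 282 in BrafYAP, with overlap.

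Of the INK4 genes, Cdkn2a and Cdkn2b showed the widest spread of all members among libraries. They are neighbours on chromosome 4. Cdkn2a encodes p16Ink4a and, from an alternative first exon and reading frame, p19Arf, a protein that restrains Mdm2 and so protects p53. The values are per gene, so these products cannot be separated. Cdkn2b encodes p15Ink4b, an inhibitor known for its induction by TGF-β. Cdkn2c encodes p18Ink4c.

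Cdkn2b (chr4:89306299-89311039, minus strand) had the largest log2 change of the members. Its scaled reads were 225, 4827 and 964 in YAP replicates 1, 2 and 3 and 9435, 15168 and 2717 in BrafYAP replicates 1, 2 and 6. The groups overlapped, because YAP replicate 2 lay above BrafYAP replicate 6. The means were 2005 ± 2471 and 9107 ± 6232 (SD, n = 3 each). This amounted to a log2 change of 2.84 (SE 1.12, limma adjusted p = 0.220, unadjusted p = 0.0376), with a 95% interval of 0.21 to 5.47. The change was 1.76 without YAP replicate 1 (limma adjusted p = 0.465, unadjusted p = 0.109), 3.56 without BrafYAP replicate 6, where the groups no longer overlapped, and 2.76 after the GC adjustment. All YAP libraries together spanned 21.4-fold.

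The stretch just upstream of Cdkn2b is printed because this gene had the largest log2 change and its promoter holds an uncommon element. It is the RefSeq promoter window on GRCm38.p6 (chr4:89311040-89311282, minus strand), which starts 250 bases before the RefSeq transcription start and is cut short of 7 bases that GENCODE places in the first exon. Capitals mark TGACGTCA, the palindromic cyclic AMP response element, at chr4:89311071-89311078.
Cdkn2b promoter: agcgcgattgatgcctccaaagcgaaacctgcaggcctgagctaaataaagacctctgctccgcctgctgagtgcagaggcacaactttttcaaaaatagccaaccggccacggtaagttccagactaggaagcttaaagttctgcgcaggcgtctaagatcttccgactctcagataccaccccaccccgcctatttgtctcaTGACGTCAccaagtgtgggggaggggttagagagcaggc

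These letters occur in 1.55% of 32851 RefSeq promoter windows of 250 bases, searched on both strands. The same windows were searched for an AP-1 site (TGACTCA or its reverse complement, in 4.46% of windows), a TEAD site (GGAATG or its reverse complement, in 12.6%), E2F sites (TTTCGCGC or TTTGGCGC, in 0.654%), a GC box (GGGCGG, in 32.7%) and an ETS site (CCGGAAGT, in 2.88%). TEAD factors are the DNA-binding partners of YAP, and AP-1 and ETS factors act downstream of MAPK signaling. Of the 10 members, 8 had an entry, and Ccnd1 and Ccnd2 had none. Among the 12 windows of these 8 genes, the TEAD letters stood once, in 1 of 2 windows of Ccnd3, and the AP-1, E2F and ETS letters stood in none. A match is only a description of the sequence, and no match says only that these letters are not in the window.

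Cdkn2a (chr4:89274471-89294653, minus strand) had 23.6, 48.9 and 38.1 scaled reads in YAP replicates 1, 2 and 3 and 102, 333 and 8.88 in BrafYAP replicates 1, 2 and 6. A pair of BrafYAP libraries lay above every YAP library and BrafYAP replicate 6 below every one, and BrafYAP spanned 37.5-fold. These correspond to 92, 424 and 10.0 estimated reads in BrafYAP and 23 to 40.0 in YAP. The log2 change was 0.94 (SE 1.20, limma adjusted p = 0.680), with an interval of -1.87 to 3.75. Without BrafYAP replicate 6 it was 2.35, with no overlap (limma adjusted p = 0.116, unadjusted p = 0.00746), and with all libraries after the GC adjustment it was 0.25. Without BrafYAP replicate 2 it was -0.19. The change thus rested on single libraries, among them BrafYAP replicate 6, whose Tg value was high only beside the other BrafYAP libraries. The part of thyroid differentiation or of cell makeup in the Cdkn2a values was not tested.

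Cdkn2b exceeded Cdkn2a in all libraries, by 8.03- to 83.2-fold per exonic length in YAP and 38.4- to 258-fold in BrafYAP. The order of the libraries was the same for both neighbours, from YAP replicate 1 through YAP replicate 3 and YAP replicate 2 to BrafYAP replicates 1 and 2, apart from BrafYAP replicate 6, which was lowest for Cdkn2a but lay between YAP replicates 3 and 2 for Cdkn2b.

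Cdkn2c (chr4:109660876-109667189, minus strand) had 156, 137 and 74.1 scaled reads in YAP replicates 1, 2 and 3 and 127, 83.2 and 403 in BrafYAP replicates 1, 2 and 6. The high BrafYAP library was replicate 6, and the other values overlapped. Its log2 change was 0.47 (SE 0.64, limma adjusted p = 0.698) and was 0.11 after the GC adjustment and -0.18 without BrafYAP replicate 6. Cdkn2c was therefore highest, and Cdkn2a lowest, in the same library. Cdkn2d, the remaining INK4 gene, had 729.8 to 1305 scaled reads in YAP and 650.0 to 980.4 in BrafYAP, with a log2 change of -0.30 (limma adjusted p = 0.634).

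Of the CIP/KIP inhibitors, Cdkn1a and Cdkn1b overlapped between the genotypes. Cdkn1a (chr17:29090976-29100727, plus strand) encodes p21, a target of p53 that also responds to stress and mitogens. It had 13117, 25636 and 19312 scaled reads in YAP replicates 1, 2 and 3 and 23449.8, 27289 and 13485 in BrafYAP replicates 1, 2 and 6. The lowest library of each group was the one that stood apart, and the ranges were nearly the same. The log2 change was 0.14 (SE 0.39, limma adjusted p = 0.866), with a 95% interval of -0.79 to 1.06, and it was -0.12 without YAP replicate 1. AC167363.2, a transcript that overlaps Cdkn1a on the other strand, had 17.2 to 91.0 scaled reads.

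Cdkn1b (chr6:134920401-134925513, plus strand) encodes p27, which restrains CDK2 in resting cells and is controlled mainly through protein turnover. It had 417, 532 and 479.9 scaled reads in YAP replicates 1, 2 and 3 and 526, 381 and 825 in BrafYAP replicates 1, 2 and 6. BrafYAP replicate 6 was the highest and BrafYAP replicate 2 the lowest of the 6 libraries. The log2 change was 0.21 (SE 0.36, limma adjusted p = 0.766, interval -0.63 to 1.06) and -0.083 without BrafYAP replicate 6.

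Cdkn1c, the third gene of the family, encodes p57 and is imprinted. It was close to absent in YAP, with 0, 2.45 and 13.4 scaled reads in replicates 1, 2 and 3, and was detected in BrafYAP with 51.0, 65.1 and 68.4 scaled reads in replicates 1, 2 and 6. The groups did not overlap. The fitted log2 change was 4.08 (SE 1.01, limma adjusted p = 0.109, unadjusted p = 0.00454), a value that depends on the added count of 1, since YAP replicate 1 was at 0. With a GC content of 59.4%, Cdkn1c also lies in the highest GC decile, where YAP replicate 1 had low values. No GC-adjusted value is given for it here.

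**Figure D4:**
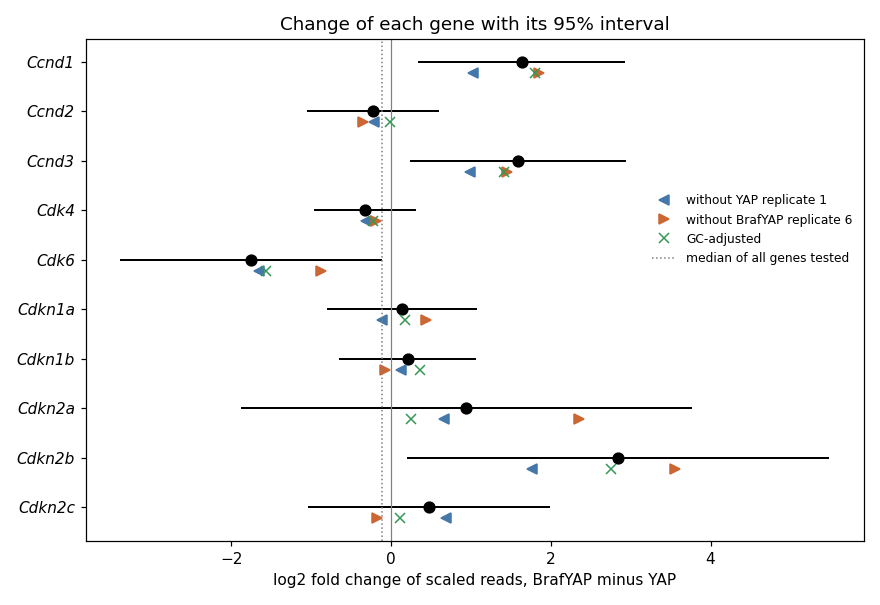
Log2 fold change from YAP to BrafYAP of each gene (black points) with its 95% interval (black lines), and the change without YAP replicate 1 (blue), without BrafYAP replicate 6 (orange) and after GC adjustment (green crosses). The dotted line is the median of all genes, -0.12. The orange points of Cdkn2a and Cdk6 lie far from the black ones, at 2.35 and -0.88.

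Ranked by mean level per exonic length, the members ran in YAP from Cdkn1a (470 ± 143 TPM, SD, n = 3) through Cdk4 (289.7 ± 43.0), Ccnd1 (151 ± 82.8), Cdkn2b (122 ± 147), Ccnd2 (50.5 ± 10.9), Ccnd3 (28.4 ± 20.4), Cdk6 (13.6 ± 1.67), Cdkn1b (9.06 ± 1.02) and Cdkn2c (3.92 ± 1.28) to Cdkn2a (2.72 ± 0.892). Neighbours whose library ranges did not overlap were Cdk4 over Ccnd1, Cdk6 over Cdkn1b and Cdkn1b over Cdkn2c. In BrafYAP the order was Cdkn2b (591 ± 411), Cdkn1a (542 ± 187), Ccnd1 (432 ± 136), Cdk4 (240.5 ± 40.9), Ccnd3 (73.0 ± 11.8), Ccnd2 (45.2 ± 12.4), Cdkn2a (11.4 ± 13.0), Cdkn1b (11.3 ± 4.31), Cdkn2c (6.79 ± 5.69) and Cdk6 (5.49 ± 3.71). Here the ranges were separate for Ccnd1 over Cdk4, Cdk4 over Ccnd3, Ccnd3 over Ccnd2 and Ccnd2 over Cdkn2a. Ccnd1 thus stood below Cdk4 in all YAP libraries and above it in all BrafYAP libraries.

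The genes that act after cyclin D-CDK4/6 mostly had lower means in BrafYAP, though 0 passed the limma adjusted threshold in any of the lists. With array weights 14 of 20 S-phase genes, 8 of 11 proliferation markers, 4 of 15 later cyclins and CDKs and 5 of 13 RB and E2F genes passed it, beside 4653 of all genes, and per exonic length 1 S-phase gene did. Of 20 S-phase genes that E2F activates, 12 were lower and 0 higher at an unadjusted p-value under 0.05, beside 10.5% and 9.68% of all genes. Their median log2 change was -0.93, beside -0.12 over all genes. The helicase subunit gene Mcm3 had 3309.9, 2304 and 2551 scaled reads in YAP replicates 1, 2 and 3 and 903, 854 and 539 in BrafYAP replicates 1, 2 and 6, and Tk1 (thymidine kinase) and Cdc6, which loads the helicase, likewise did not overlap. Their log2 changes were -1.85 (Mcm3, limma adjusted p = 0.0788), -1.94 (Tk1, limma adjusted p = 0.0672) and -3.67 (Cdc6, limma adjusted p = 0.0665). Of 11 proliferation markers, 8 were lower and 0 higher at that p-value, with a median of -2.21. Birc5 (survivin), Bub1b and Top2a had log2 changes of -2.44, -2.22 and -2.30 (limma adjusted p = 0.0672, 0.0818 and 0.0818), and Mki67, which encodes the Ki-67 antigen, one of -1.66 (limma adjusted p = 0.188). The immune markers described above were lower in BrafYAP too, and their part in these differences was not tested. Without BrafYAP replicate 6, 2 of the S-phase genes and 1 of the proliferation markers passed the adjusted threshold, beside 142 of all genes. With a replicate block, 7 of the S-phase genes were lower at the unadjusted p-value.

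Among 16 later cyclins, CDKs and their activators, 15 were tested. At an unadjusted p-value under 0.05, 4 were lower and 0 higher (median -0.69), beside 10.5% and 9.68% of all genes. The mitotic genes Ccnb1, Cdc25c and Ccnb2 had log2 changes of -2.54, -2.42 and -1.77 (limma adjusted p = 0.0889, 0.0818 and 0.133). Ccne1, the gene of cyclin E1, which acts next after cyclin D, was low throughout, with 66.8 to 83.4 scaled reads in YAP and 34.3 to 62.8 in BrafYAP, no overlap and a log2 change of -0.70 (limma adjusted p = 0.384). Of 13 genes of the RB family and its E2F partners, 3 were higher and 3 lower at that p-value. Over all genes the shares were 9.68% higher and 10.5% lower. The higher count was 1 without YAP replicate 1, YAP replicate 3 or BrafYAP replicate 2, and the counts were 1 and 1 with the replicate block. Rb1 itself had 192, 129.6 and 144 scaled reads in YAP replicates 1, 2 and 3 and 83.9, 53.4 and 44.4 in BrafYAP replicates 1, 2 and 6, a log2 change of -1.38 (limma adjusted p = 0.143), and E2f8 and E2f2 were also lower, with log2 changes of -1.97 and -1.74 (limma adjusted p = 0.099 and 0.155). Tfdp2, E2f6 and Rbl2, which encodes the RB relative p130 of resting cells, had log2 changes of 1.07, 1.25 and 1.35 (limma adjusted p = 0.117, 0.171 and 0.216).

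Of 12 genes for the turnover of p27 and cyclin D, 3 were higher and 3 lower at an unadjusted p-value under 0.05. Over all genes the shares were 9.68% higher and 10.5% lower. Without YAP replicate 1 the counts in this list were 1 and 0. With array weights 5 of the 12 passed the limma adjusted threshold, beside 4653 of all genes. Fbxo4, an F-box protein reported to target cyclin D1, had 45.2, 169 and 83.4 scaled reads in YAP replicates 1, 2 and 3 and 404, 524 and 844 in BrafYAP replicates 1, 2 and 6, with a log2 change of 2.69 (limma adjusted p = 0.0889). The cullin genes Cul1 and Cul4a had log2 changes of 0.96 and 1.38 (limma adjusted p = 0.225 and 0.228). Skp2 and Cks2, of the machinery and family that mark p27 for destruction, had log2 changes of -1.19 and -0.90 (limma adjusted p = 0.221 and 0.199), and Usp2, a deubiquitinase of cyclin D1, one of -1.19 (limma adjusted p = 0.243).

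Of 12 regulators of the Cdkn2a locus, 11 were tested. At an unadjusted p-value under 0.05, 2 were higher and 0 lower, beside 9.68% and 10.5% of all genes. With array weights 3 of the 11 passed the limma adjusted threshold, beside 4653 of all genes. Ets2, an activator of p16Ink4a downstream of MAPK signaling, had 737 to 1662 scaled reads in YAP and 2212 to 2828 in BrafYAP (log2 change 1.33, limma adjusted p = 0.128). Bmi1, a Polycomb repressor of the locus, had 89.3 to 167 and 207 to 581 (log2 change 1.24, limma adjusted p = 0.228), highest in BrafYAP replicate 6, the library with the least Cdkn2a. For 8 regulators of Cdkn1b and Cdkn2b transcription (Foxo, Smad, Zbtb17 and Myc) 0 were past an unadjusted p-value of 0.05 with limma, and 0 past the adjusted one. The same held for Trp53, Mdm2 and Mdm4, whose log2 changes were -0.33, 0.30 and -0.75 (limma adjusted p = 0.534, 0.675 and 0.256). With array weights 2 of these 3 genes passed the limma adjusted threshold, as did 4653 of all genes.

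Immediate-early and heat-shock transcripts were also measured, since tissue digestion can induce them. Of 12 such genes, 0 passed the limma adjusted threshold, though 8 did with array weights, beside 4653 of all genes. At an unadjusted p-value under 0.05, 7 were higher in BrafYAP, beside 9.68% of all genes, or 4 with the replicate block. Libraries did not overlap for 7 that were higher, beside 11.7% of all genes, and the summed level of the 12 was 4295 to 10599 TPM in YAP and 13184 to 21571 in BrafYAP. Junb had 1115, 52169.5 and 8511 scaled reads in YAP replicates 1, 2 and 3 and 59093, 56146 and 78389.7 in BrafYAP replicates 1, 2 and 6. Replicate 1 was the lowest and replicate 2 the highest of the YAP libraries for Junb and also for Ccnd1, Ccnd3 and Cdkn2b. The summed level of the 12 did not have this order, at 4777, 10599 and 4295 TPM in YAP replicates 1, 2 and 3. Fos did not separate the groups (38929.9 to 67138 against 61637 to 74571). Fos and Junb encode AP-1 factors, which act downstream of MAPK signaling, so digestion and mutant Braf cannot be told apart here. The part of either in the Ccnd1, Ccnd3 and Cdkn2b differences was not tested.

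Of the altered genes, Yap1 had 781 to 907 scaled reads in YAP and 1368, 1465 and 264 in BrafYAP replicates 1, 2 and 6, and Braf had 189 to 292 and 148 to 344. A point mutation leaves no mark on a gene total, and how much of the transgene the Yap1 row counts was not given in the sources used here, so these values do not check the labels.

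Some genes followed a member closely over the 6 libraries. Among 12143 genes with a mean of at least 50 scaled reads, those most like Ccnd1 were N6amt1 and Cldn23 (Pearson's r = 0.995 and 0.994). Cldn23, the gene of a claudin, had 12.3, 124 and 93.7 scaled reads in YAP replicates 1, 2 and 3 and 507, 327 and 277 in BrafYAP replicates 1, 2 and 6. Those most like Cdk4 were Zfp369 and Kmt5a (r = 0.996 and 0.995), and those most like Cdkn2a were Itgb3 and Uck2 (r = 0.996 and 0.993). Itgb3, the gene of integrin beta 3, had 84.4 scaled reads in BrafYAP replicate 6 and 976 and 2503 in BrafYAP replicates 1 and 2. These correlations share all 6 libraries, and they are given as a description with no test.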

How the data were processed

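RNA of Kate-positive cells from 3 YAP and 3 BrafYAP samples was sequenced. The authors demultiplexed reads with bcl2fastq 2.2, mapped them with STAR 2.6.1d to mm10, quantified genes by Partek's E/M model on Ensembl annotation and deposited TPM with 0.0001 added. The TPM were taken as divided by genomic span. With a step fitted on span, 71.7 to 76.1% of low values (under 200 reads) came within 0.05 of a whole read when multiplied by span. For exonic length the share was 22.3 to 25.1%, but with the same step and no fit of its own, so this comparison favors span. Reads were recovered as (value - 0.0001) × span / step, with GENCODE M21 spans (34640 symbols at one locus). Scaled reads keep the authors' scaling between libraries. Depth was 26.2 to 36.9 M reads.

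Groups were compared with limma 3.58.1 in R 4.3.3 (eBayes with a trend, two-sided) on log2(scaled reads + 1), a mean of at least 10 and Benjamini-Hochberg adjustment over all genes, and the fit was tested on simulated data. The members and lists were chosen with earlier results of these data known. All members are described. From the lists, up to 3 genes per direction with the smallest unadjusted p-values under 0.05 are named, besides all genes of short lists, Mki67 and Ccne1. The GC adjustment subtracted a loess curve (span 0.3) on GC content in each library. Alternatives were other pseudocounts, filters, scalings, lengths, array weights, voom, a replicate block and leaving out each library. One of the 6 immune markers is not reported here by name.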

Additional observations from a re-analysis of the deposited data

How the results depend on the processing

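With limma on scaled reads, 0 members passed the adjusted threshold under any alternative but array weights, and the 197 member values under the alternatives changed sign in 10. Ccnd1, Ccnd3, Cdk4, Cdk6 and Cdkn2b kept their direction in all that gave a value. With array weights the log2 changes of Ccnd1, Ccnd3 and Cdkn2b were 1.46, 1.42 and 3.38 (limma adjusted p = 0.0130, 0.0117 and 0.00544), and those of Ccnd2 and Cdkn1b turned to 0.050 and -0.0048. The cause was not tested. Leaving out each library gave 1.03 to 1.98 for Ccnd1, -0.42 to 0.037 for Ccnd2, 0.99 to 2.17 for Ccnd3, -0.43 to -0.19 for Cdk4, -2.20 to -0.88 for Cdk6, -0.12 to 0.44 for Cdkn1a, -0.083 to 0.47 for Cdkn1b, -0.19 to 2.35 for Cdkn2a, 1.76 to 3.97 for Cdkn2b and -0.18 to 0.95 for Cdkn2c. After these changes 0 to 142 of all genes passed the adjusted threshold, the 142 without BrafYAP replicate 6.

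Of all genes, 45 passed with a pseudocount of 10, 62 with quantile normalization, 18 on the deposited values, 63 per exonic length, 20 without a trend, 40 after the GC adjustment and 4653 with array weights. The genes at an unadjusted p-value under 0.05 were 1455 on the deposited values, where fewer genes were tested, and 6916 with array weights. On the deposited values Cdk6, Cdkn2a and Cdkn2c lay below the minimum mean of 1 and gave no value. The GC adjustment and its form without YAP replicate 1 were chosen after seeing the data. Array weights were estimated from the same 6 libraries that they weight.

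The choice of length moved the makeup. With the longest transcript the mean share of Ccnd1 was 69.0% in BrafYAP, that of Ccnd3 was 18.0% in YAP and 22.2% in BrafYAP, and the mean Cdk4 to Cdk6 ratio was 28 in YAP. With no length division the shares of Ccnd1 were 47.0% and 64.8%, those of Ccnd3 15.8% and 21.4% in YAP and BrafYAP, that of Ccnd2 was 13.9% in BrafYAP, and the Cdk4 to Cdk6 ratio was 4.98 in YAP.

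Only the numbers 1 and 2 occur in both groups. The deviations of same-numbered libraries correlated at -0.03 for number 1 and 0.05 for number 2, and the labels tie no pair to one animal or litter, so these libraries share only a number. With a replicate block, Cdkn1b turned to -0.074 and Cdkn2c to -0.50, the changes of Cdkn2a, Ccnd3 and Cdk6 were 2.40, 1.47 and -0.92 (limma adjusted p = 0.256, 0.430 and 0.359, unadjusted p = 0.0105, 0.114 and 0.066), 0 genes passed the adjusted threshold, and 2531 had an unadjusted p-value under 0.05.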
